A study of Arabidopsis thaliana with 16 samples.

Results

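Of the 15596650 mRNA bases that carried a structure score in salt-treated leaves, 1478842 lay under a protein protected site (PPS) and are called bound, and 14117808 did not and are called unbound. Bound bases were chosen by position alone. A base counted as bound when a site of the salt-treated replicate 1 or replicate 2 list covered it on either strand. For differences per transcript, unbound bases were the other scored bases of the same transcript and the same part of it (5' UTR, CDS or 3' UTR). The distribution of scores and the counts of letters and words instead pooled unbound bases over all genes, also those with no bound base. Scores played no part in that choice. The bases came from 10003 nuclear genes, each represented by the transcript with the most scored bases, and 5932 of these genes held at least 1 bound scored base. A further 7007 bound bases had no score and were not used.

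Inside the cell an mRNA is held by RNA-binding proteins and also pairs with itself into stems and loops. Some of these proteins read short single-stranded stretches, others recognise paired stems, and helicases and chaperones open stems. Protein interaction profile sequencing (PIP-seq) reads both layers with the same enzymes. RNase ONE digests single-stranded RNA (the ssRNase) and RNase V1 digests paired RNA (the dsRNase). Footprinting libraries are digested while crosslinked proteins still cover the RNA, and structure-only libraries after the proteins were removed. A PPS is a stretch with more footprinting than structure-only reads for 1 of the RNases. The structure score of a base compares the 2 structure-only libraries on a log2-type scale. It is higher where the RNA was more double-stranded, lower where it was more single-stranded, and 0 at the mean of the transcript. A score therefore ranks bases within a transcript and says nothing of how folded a whole mRNA is.

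The leaves were rosette leaves of 4-week-old Arabidopsis thaliana Columbia-0 plants carrying UBQ10:NTF/ACT2p:BirA, which puts a biotin tag on the nuclear envelope so that nuclei can be pulled out of crosslinked tissue. Both conditions carried these transgenes and were crosslinked with formaldehyde. Salt-treated plants were watered with stepwise rising NaCl and then kept at the highest step, and control-treated plants were not given NaCl. Each condition had 2 biological replicates of 4 libraries, 16 libraries in all, and a marker protein of the endoplasmic reticulum was also detected in the isolated nuclei. All 8 leaf marker genes looked for were in the mRNA table, against 1 of 7 root and 0 of 3 flower markers.

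The replicate lists of sites were not independent. The replicate 1 list held 32443 sites and the replicate 2 list 26188, and 15189 calls stood in both with the same position and the same enrichment score. All of these were labelled + in the replicate 1 list and - in the replicate 2 list, so that 0 of them shared a strand label. Of the bound bases in genes on the + strand, 95.1% of the replicate 1 bases were also replicate 2 bases. In genes on the - strand, 97.9% of the replicate 2 bases were also replicate 1 bases. Of the bases that both lists covered, 98.4% in + strand genes and 99.3% in - strand genes lay under such identical calls. Overlap between the lists is therefore no measure of how well the replicates repeat each other, and values are given below both for each whole list and for the calls that only 1 list held. Bound bases were therefore chosen without regard to the strand label of a site.

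The bound sequences below show what a score looks like along a site. Each is the middle 30 bases of the site with the highest enrichment score of its kind that overlapped a site of the other list and had every base of the site and its flanks scored. Letters in capitals mark bases with a salt-treated score above 0, and lower case letters mark bases at or below 0. Coordinates are TAIR10.
AT5G62560 CDS, dsRNase site, chr5:25111491-25111520, + strand: gaauuugagguuuaggggguuggcgaguga
PRR7 CDS, ssRNase site, chr5:638690-638719, - strand: uaaugggccauauggaagcaguaacgguau
JAZ1 5' UTR, dsRNase site, chr1:6622424-6622453, + strand: guagcuuuggagaucugagcuuAGGAAUGG
JAZ1 5' UTR, ssRNase site, chr1:6622605-6622634, + strand: guuugcuaaauuuugacauagaaaaugauu
TPP 3' UTR, dsRNase site, chr2:12975233-12975262, + strand: caaagaaaaggaaacgauuuacugugauug
AT2G18670 3' UTR, ssRNase site, chr2:8095182-8095211, + strand: UUUUCUAUCGUUUUCUUCUCUACAAAACUC

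In 4 of these 6 windows, those in AT5G62560, PRR7, TPP and the ssRNase site of JAZ1, no base scored above 0. The whole AT5G62560 site, in the CDS of a RING/U-box protein gene, averaged -1.48 over 207 nt, and its flanks averaged -0.73 upstream and -2.72 downstream. The PRR7 site, in the CDS of a clock transcription factor gene, averaged -0.64 between flanks of 0.24 and -0.38. The thylakoid processing peptidase gene TPP had -0.91 at its 3' UTR site between flanks of 0.54 and -0.40. JAZ1, a repressor of jasmonate signalling, carried both kinds of site in its 5' UTR, with -0.79 over the ssRNase site and 0.22 over the dsRNase site. In AT2G18670, another RING/U-box gene, all 30 bases shown scored above 0 and the site averaged 0.61, but its downstream flank was higher still at 1.09. These sites show the range, and their scores are single values without an error.

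Bound bases were not spread evenly over the mRNA. They made up 10.6% of scored CDS bases (1323907 bases), 5.44% of 5' UTR bases (68019) and 4.60% of 3' UTR bases (86916). The order CDS, 5' UTR, 3' UTR was the same in both lists, with 7.94%, 4.31% and 3.67% for replicate 1 and 6.83%, 3.36% and 2.72% for replicate 2. Of the bound bases, 677801 lay under ssRNase sites only, 532737 under dsRNase sites only, 212197 under a site called with both RNases and 56107 under separate sites of each. Of 9862 genes with at least 200 scored CDS bases, 5739 had a bound CDS base, and in the median of these 12.1% of the CDS was bound.

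Bound bases scored lower than unbound bases of the same transcript in all 3 parts of the mRNA, that is, they were more single-stranded. In the CDS the mean bound minus unbound difference was -0.26 ± 0.73 (SD over 5680 transcripts), from -0.16 for bound bases and 0.10 for unbound bases. In the 5' UTR it was -0.23 ± 1.00 (933 transcripts), and the 3' UTR gave -0.20 ± 1.01 (1000 transcripts). The spread over transcripts was larger than the mean difference in each part, and many transcripts went the other way. The bound mean was the lower one in 68.3% of transcripts in the CDS (Wilson 95% interval 67.1% to 69.5%), 59.8% in the 5' UTR (56.6% to 62.9%) and 59.2% of those with a measured 3' UTR (56.1% to 62.2%). These intervals cover counting error over transcripts only. No test was made, because each condition has 1 merged score per base, and bases and transcripts are not replicates of the leaves.

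With the replicate 1 list the differences were -0.25 (5' UTR), -0.27 (CDS) and -0.22 (3' UTR), and with the replicate 2 list -0.28, -0.31 and -0.17. The lists share calls, so calls of 1 list alone are given as well. In + strand genes 95.1% of replicate 1 bases were shared, and in - strand genes 97.9% of replicate 2 bases. Replicate 1 calls alone are thus mostly in - strand genes, and replicate 2 calls alone mostly in + strand genes. Setting them side by side compares different genes and cannot show how far the replicates repeat. Calls of the replicate 1 list alone gave -0.22 in the CDS (2921 transcripts), -0.20 in the 5' UTR (406) and -0.23 within 3' UTRs (483). Calls of the replicate 2 list alone gave -0.21 in the CDS (1883), -0.13 in the 5' UTR (211) and -0.094 within 3' UTRs (219). The CDS values were close, the UTR values of the replicate 2 calls were nearer to 0, and all 6 were below 0. List and gene strand cannot be told apart in these values. The calls present in both lists differed more from their surroundings in the CDS, by -0.35 (3213 transcripts, 71.1% with the bound mean lower). The CDS difference was -0.23 ± 0.71 in the 2829 + strand genes and -0.29 ± 0.75 in the 2851 - strand genes. For - strand genes it was -0.29 with the replicate 1 list (2844 transcripts) and -0.49 with the replicate 2 list (1183 transcripts), and for + strand genes -0.24 (2161) and -0.23 (2757). With the lists joined, bases under sites labelled only with the strand opposite to the transcript were few. In the CDS they gave -0.0088 ± 0.68 (307 transcripts, 42182 bases), with 53.4% of transcripts lower (Wilson 95% interval 47.8% to 58.9%). Bases under a site labelled with the strand of the transcript gave -0.27 ± 0.74 (5574 transcripts). Calls present in both lists carry both labels, so the joined lists never count them as opposite only. With the replicate 1 list the CDS values were -0.45 ± 0.84 (925 transcripts) for opposite labels only and -0.25 ± 0.74 (4796) for the transcript's strand. With the replicate 2 list they were -0.18 ± 0.76 (2170) and -0.36 ± 0.73 (3061), the other order. No effect of the strand label can be read from these values.

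**Figure D1:**
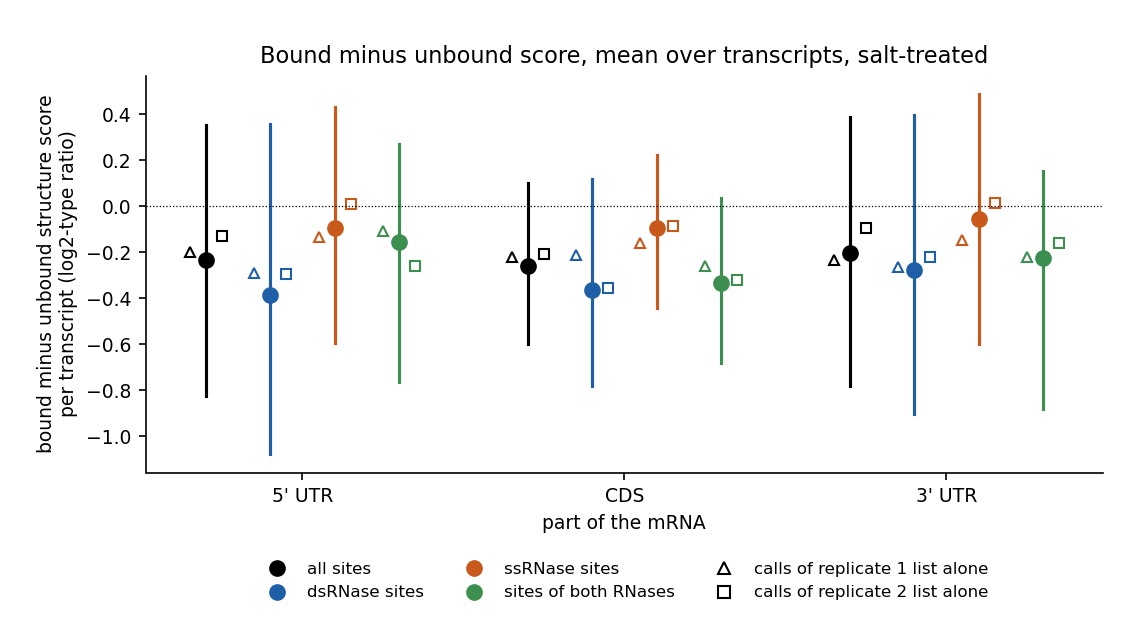
Bound minus unbound structure score (vertical axis, log2-type ratio) in 3 parts of salt-treated mRNAs, the UTRs and the CDS,. Filled circles are means over transcripts with sites of both lists and vertical lines run from the lower to the upper quartile over transcripts, while open triangles and squares are means with calls of the replicate 1 or replicate 2 list alone. All circles lie below 0 (all sites in the CDS at -0.26), ssRNase sites lie nearest to 0, and every quartile line crosses 0.

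The same structure-only libraries of salt-treated leaves entered both the site calls, as their background, and the score. The part of that shared source in the bound minus unbound difference cannot be told apart with the salt-treated score alone, and scores from the control-treated libraries are given further on.

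Pooled over all genes, the whole distribution of scores was narrower at bound bases, most of all at its upper end. These bases were not matched by transcript, and the part of which genes carry sites was not tested. In the CDS the bound bases had a median of -0.11 and an SD of 1.05, and the unbound bases a median of 0.08 and an SD of 1.42. Only 10.3% of bound CDS bases scored above 1, compared with 24.3% of unbound bases. At the low end the shares were nearer to each other, with 16.4% of bound and 20.7% of unbound bases below -1. Bound bases thus had smaller shares at both ends of the scale, and the smaller share above 1 is where they differed most from unbound bases. The UTRs had the same form, with 9.39% of bound against 25.5% of unbound bases above 1 in the 5' UTR and 10.2% against 25.6% in the 3' UTR.

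**Figure D2:**
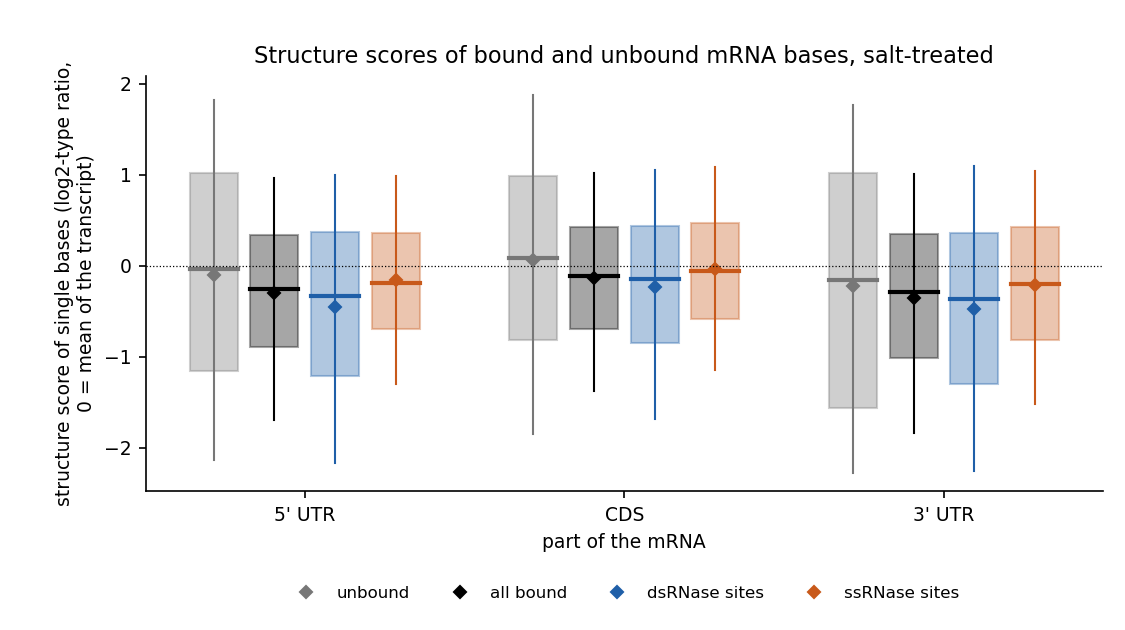
Structure scores of single bases (vertical axis, log2-type ratio with 0 at the transcript mean) in the 3 parts of the mRNA, for unbound bases, all bound bases, dsRNase sites and ssRNase sites in salt-treated leaves. Boxes run from the lower to the upper quartile with the median as a line, whiskers run from the 10th to the 90th percentile and diamonds are means. Bases are pooled over all genes and not matched by transcript. Bound boxes are shorter than unbound boxes, and the upper whisker in the CDS ends at 1.02 for bound and 1.88 for unbound bases.

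Over all sites, bases under dsRNase sites lay further below their unbound bases than bases under ssRNase sites. At dsRNase sites the CDS difference was -0.36 ± 0.83 (4026 transcripts), the 5' UTR difference -0.39 ± 1.16 (424) and the 3' UTR difference -0.28 ± 1.102 (569). At ssRNase sites it was -0.095 ± 0.64 in the CDS (3524), -0.093 ± 0.91 in the 5' UTR (471) and -0.055 ± 0.90 within 3' UTRs (456). The bound mean was the lower one in 68.1% of transcripts for dsRNase sites in the CDS and in 59.7% for ssRNase sites. Sites called with both RNases gave -0.33 ± 0.64 in the CDS (1270 transcripts), with 71.9% of transcripts lower.

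The contrast between the RNases depended on which calls were used. Replicate 1 calls alone lie mostly in - strand genes and replicate 2 calls alone mostly in + strand genes. List and gene strand therefore cannot be told apart in these values. In the CDS, dsRNase calls of the replicate 2 list alone gave -0.36 and its ssRNase calls -0.085. For the replicate 1 list alone the means were closer, at -0.21 and -0.16, and their order turned in the medians, which were -0.15 for dsRNase and -0.18 for ssRNase calls. The share of transcripts with the bound mean lower turned as well, at 59.6% for dsRNase and 62.1% for ssRNase calls of that list. The calls present in both lists carried the widest gap, with -0.50 for dsRNase and -0.067 for ssRNase sites. In the UTRs the ssRNase calls of the replicate 2 list alone were at 0.0088 in the 5' UTR (128 transcripts) and 0.015 within 3' UTRs (121). With the whole replicate 2 list, ssRNase sites in the 3' UTR stood at 0.025 ± 0.91 (250 transcripts), above their unbound bases, so no direction can be given for ssRNase sites there. In the 1971 transcripts whose CDS held both kinds of bound base, dsRNase bases scored -0.16 ± 0.91 below ssRNase bases, with 55.5% of transcripts in that direction (Wilson 95% interval 53.3% to 57.7%). With the replicate 1 list the same comparison gave -0.11 (1172 transcripts, 51.7% in that direction) and with the replicate 2 list -0.24 (975 transcripts, 61.8%). Few UTRs held both kinds. The 5' UTR gave a mean of -0.13 ± 1.04 and a median of 0.074 over 55 transcripts, which differ in sign, and the 3' UTR a mean of 0.012 ± 0.89 over 88.

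Against its own flanks, the inside of a site scored lower too. Among 13710 CDS sites that lay in a single stretch of the mRNA with enough scored unbound bases on each side, the score averaged -0.14 inside, 0.076 in the 50 nt upstream and 0.057 in the 50 nt downstream. The inside was lower than the flanks by -0.21 ± 0.90 (SD over sites), in 59.2% of sites (Wilson 95% interval 58.4% to 60.0%). The upstream and downstream flanks were close to each other. The inside minus flank difference was -0.27 for 6323 dsRNase sites, -0.15 for 6507 ssRNase sites and -0.24 for 889 sites of both RNases. In the UTRs it was -0.17 ± 0.94 for 445 5' UTR sites and -0.26 ± 1.00 for 774 3' UTR sites. The median site length was 44 nt for dsRNase and 59 nt for ssRNase sites in the CDS.

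Base by base, the score fell from the edge inward. At dsRNase sites of the replicate 1 list it was 0.037 ± 0.020 (SE over sites) 15 nt upstream of the 5' edge, -0.049 ± 0.019 at the first base inside and -0.34 ± 0.017 at base 15 inside. In the replicate 2 list the same positions had 0.041 ± 0.024, -0.083 ± 0.022 and -0.41 ± 0.021. At ssRNase sites the fall was smaller, from 0.12 ± 0.020 to 0.071 ± 0.018 and -0.063 ± 0.016 in the replicate 1 list, and from 0.13 ± 0.020 to 0.096 ± 0.019 and -0.031 ± 0.016 in the replicate 2 list. The bases just inside the edges thus resembled the flanks more than the middle of the site did. Neighbouring sites in a transcript share its score, so these SE are descriptions of the spread and not errors over leaves.

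**Figure D3:**
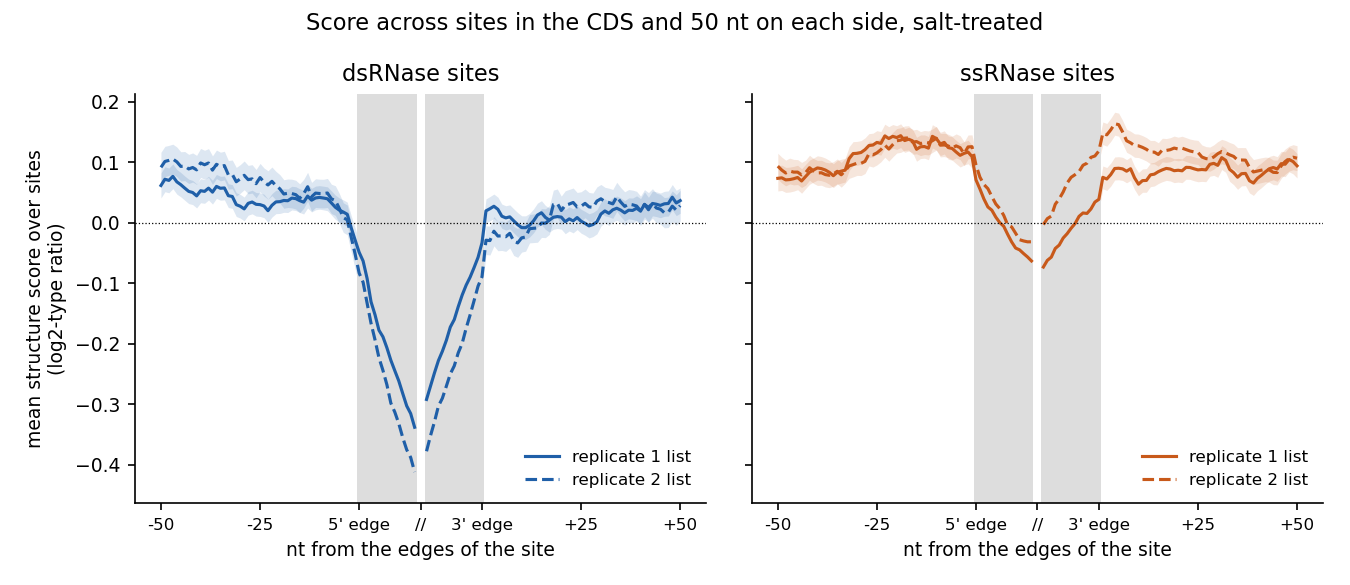
Mean structure score (vertical axis, log2-type ratio, bands are the SE over sites) across CDS sites of at least 30 nt in salt-treated leaves, from 50 nt upstream of the 5' edge to 50 nt downstream of the 3' edge. Grey marks the 15 nt inside each edge, with the middle of the site left out at the double slash, and solid and dashed lines are the replicate 1 and replicate 2 lists. The score dips inside the site, to -0.34 and -0.41 at base 15 of dsRNase sites and to -0.063 and -0.031 at base 15 of ssRNase sites.

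Sites with a high enrichment score, the strength given to each PPS, dipped further than weak ones. Sites were put in 4 classes by enrichment score, which did not hold equal numbers of sites. For dsRNase sites in the CDS the top class had an inside minus flank difference of -0.38 ± 0.95 (SD, 1265 sites) in the replicate 1 list and -0.46 ± 0.95 (782 sites) in the replicate 2 list. The bottom class had -0.18 ± 1.04 (1314 sites) and -0.32 ± 1.00 (1564 sites). The second class of the replicate 2 list held only 332 sites. ssRNase sites went the same way, with -0.23 against -0.14 in the replicate 1 list and -0.16 against -0.074 in the replicate 2 list. The structure-only libraries entered both the enrichment score and the structure score, and the part of this shared source was not tested. The classes between were not in order for dsRNase sites, with -0.26 and -0.20 in the replicate 1 list and -0.22 and -0.36 in the replicate 2 list. For dsRNase sites of 80 nt or more the difference was -0.38 (239 sites) and -0.48 (213 sites), compared with -0.26 (1807 sites) and -0.32 (906 sites) for those of 20 to 39 nt. For ssRNase sites length showed no such order, with the shortest class lowest in both lists at -0.23 and -0.18.

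Pooled over all genes, bound CDS bases were richer in purines than unbound ones. These shares were not matched by transcript, and the part of which genes carry sites was not tested. A made up 29.5% of bound and 27.7% of unbound CDS bases, and G 26.9% and 24.6%. C made up 18.6% and 20.6%, and U 25.0% and 27.1%. The gains and losses balanced, so that G and C together came to 45.5% of bound and 45.2% of unbound bases. Within transcripts, the lower score was seen for each letter taken alone, at -0.27 for A, -0.24 for G, -0.23 for U and -0.19 for C. Weighting the unbound bases to the letters of the bound bases gave -0.25 in the CDS. In the UTRs G stood out in the same direction, with 23.7% of bound against 19.3% of unbound bases in the 5' UTR and 23.8% against 20.4% in the 3' UTR.

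Six-letter words were counted in the same way, pooled over all genes and not matched by transcript, and so were their scores. Among words expected at least 100 times in bound CDS, GGCACC was the most over-represented at 2.68 times its frequency in unbound CDS (284 bound occurrences), followed by CCCGAG at 2.59 (389) and ACGAGA at 2.34 (783). The ratios in the replicate 1 and replicate 2 lists were 2.83 and 1.83 for GGCACC, 2.89 and 1.78 for CCCGAG, and 2.46 and 2.19 for ACGAGA. At the other end stood pyrimidine words, with CUCUUC at 0.44 (342 bound occurrences), UCUCUC at 0.45 (320) and CUCCUC at 0.45 (284). The score of a word was taken at the first base of each copy only, not over its 6 bases. By that first-base score, bound copies were lower than unbound copies in all 12 words at the ends of this ranking. ACGAGA averaged -0.29 at bound and 0.025 at unbound copies, and CGAGAA -0.21 and 0.031. The pyrimidine word CUCUUC averaged 0.33 at bound and 0.40 at unbound copies, and CUCCUC 0.48 and 0.50. GGCACC, though the most over-represented, averaged above 0 in both, at 0.15 and 0.25. Under dsRNase sites alone the order turned in the 6 most under-represented words, all pyrimidine-rich, where bound copies scored higher. CCUCCA averaged 0.65 at bound (29 occurrences) and 0.53 at unbound copies, and CUCCUC 0.53 (59 occurrences) and 0.50.

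The difference was alike at the 3 codon positions, at -0.26, -0.26 and -0.26. Splitting the CDS into 3 stretches of equal length gave -0.23 ± 0.79 in the first, -0.22 ± 0.80 in the middle and -0.26 ± 0.83 in the last. Near exon junctions, within 50 nt of the join in the spliced mRNA, 13.2% of CDS bases were bound, compared with 8.99% farther away, and dsRNase sites took 6.63% and 2.00% of the bases. ssRNase sites went the other way, with 4.05% near junctions and 5.45% farther away. The difference was -0.27 ± 0.79 near junctions and -0.21 ± 0.77 away from them. In mRNAs of 1 exon, which have no junction, it was -0.19 ± 0.72 (382 transcripts). In the 5' UTR the last 100 nt before the start codon gave -0.26 ± 1.12 (627 transcripts) and the bases before them -0.13 ± 0.93 (346 transcripts). The 3' UTR gave -0.24 in its first 100 nt and -0.25 beyond.

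The difference was present whether a CDS carried few or many bound bases, and more transcripts followed it when more bases were bound. The mean was -0.25 ± 0.93 in 2385 genes with up to 10% of the CDS bound and -0.27 ± 0.39 in 990 genes with over 30% bound. The share of genes with the bound mean lower rose through the 4 classes from 60.9% to 69.9%, 72.1% and 81.1%. The SD fell at the same time, and means over few bases vary more.

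The score of control-treated leaves came from libraries that had no part in the salt-treated site calls, apart from calls listed identically in both conditions. Here the same bases were compared under both scores, with unbound bases under no site of either condition. At the bases bound in salt-treated leaves the control-treated score was lower as well, by -0.40 ± 0.80 in the CDS (5668 transcripts), -0.35 ± 1.08 in the 5' UTR (905) and -0.37 ± 1.12 within 3' UTRs (988). The salt-treated score of those bases gave -0.27, -0.26 and -0.22. In the CDS 73.8% of transcripts had the bound mean lower under the control-treated score and 69.2% under the salt-treated score. The contrast was thus larger in control-treated than in salt-treated scores, by 0.13 ± 0.81 in the CDS, with 56.6% of transcripts in that direction. The SD of all scores was 1.53 in control-treated and 1.43 in salt-treated leaves, and the part of that wider scale was not tested.

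Bases bound in salt-treated leaves but under no control-treated site showed the contrast too, and in weaker form. In the CDS they gave -0.16 ± 0.78 under the salt-treated and -0.31 ± 0.83 under the control-treated score (3618 transcripts). Bases under sites of both conditions gave -0.33 and -0.43 (4466 transcripts). Leaving out sites that a control-treated list held with the same position and score gave -0.26 and -0.39 (4399 transcripts). At the sites of control-treated leaves the CDS values were -0.24 and -0.35 (5672 transcripts), the same order again. The lists of the conditions overlap, since 66.0% of bound bases also lay under a control-treated site, and these comparisons share scores, so they are descriptions side by side.

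**Figure D4:**
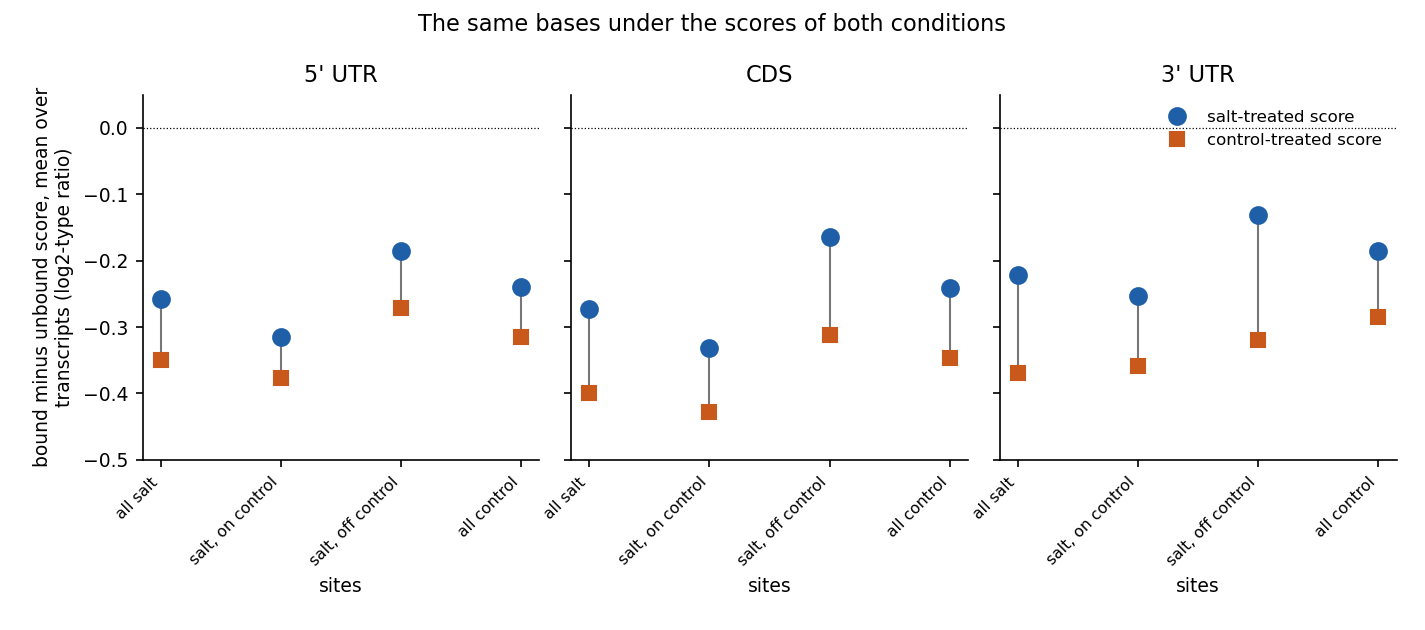
Bound minus unbound structure score (vertical axis, log2-type ratio, means over transcripts) of the same bases under the salt-treated score (circles) and the control-treated score (squares), for all salt-treated sites, those on or off control-treated sites, and all control-treated sites. The square lies below the circle in each of the 12 pairs, for example at -0.40 and -0.27 for all salt-treated sites in the CDS.

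Single genes spread far more widely than the mean. Of 2136 genes with at least 200 bound and 200 unbound CDS bases, 1552 could be measured with each list, and 1052 of these were lower and 193 higher with both lists. Since most bases that the lists share lie under identical calls, the same sign in both is in part the same call counted again. At the low end stood AT4G11300, annotated as a ROH1-family protein, with -1.49 over 328 bound and 0.71 over 788 unbound CDS bases. The difference was -2.21, with -2.21 and -2.13 in the lists of replicates 1 and 2 and -2.06 under the control-treated score. TFL2, the chromodomain protein that reads a repressive histone mark, followed at -2.10, with -1.67 over 214 bound and 0.42 over 1065 unbound bases, all under dsRNase sites. EMB2777, of the Sas10/U3 ribonucleoprotein family, was at -1.85 over 215 bound bases that were the same in both lists.

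The other 7 genes at the low end ran from -1.74 to -1.51. Among them were AT2G44200, a pre-mRNA splicing factor domain protein, at -1.63, and the potassium channel gene KT2/3 at -1.62, with -3.33 in the replicate 2 list over 112 bases. AT2G42780, annotated as a transcription elongation factor subunit, stood at -1.56 and AT1G04850, a ubiquitin-associated domain protein, at -1.55. AT1G27000 depended on the list, with -0.055 over 33 bases in the replicate 1 list and -1.74 over 291 bases in the replicate 2 list. All 10 genes were lower under the control-treated score as well, from -2.89 for TFL2 to -1.04 for EMB2777.

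At the high end the bound bases were the more double-stranded ones. GC1, a guanylyl cyclase gene, had 1.04 over 233 bound and -0.075 over 592 unbound CDS bases, a difference of 1.12 that was 0.37 in the replicate 2 list. LTA3, a subunit of the mitochondrial pyruvate dehydrogenase complex, stood at 0.98, AT1G13190, an RNA recognition motif protein, at 0.94, and the auxin response factor gene ARF18 at 0.79. With the replicate 2 list LTA3 was at 0.47, and with the replicate 1 list AT1G13190 was at 0.54. AT2G31790, a glycosyltransferase gene, stood at 1.04, with 0.30 in the replicate 1 list and 2.82 over 53 bases in the replicate 2 list. Under the control-treated score, fewer CDS genes of the high end than of the low end kept their sign. GC1 was at -0.47 there, AT2G31790 at -0.62 and ARF18 at -0.69, and only AT2G01630, AT3G04640, AT3G28450 and AT4G30470 of the 10 were above 0. Over all transcripts with bound CDS bases compared above, 73.8% had the bound mean lower under that score. The counts at the low and high end thus have unlike backgrounds. These genes were ranked by the salt-treated difference, so their values are a description of the ends of the ranking.

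**Figure D5:**
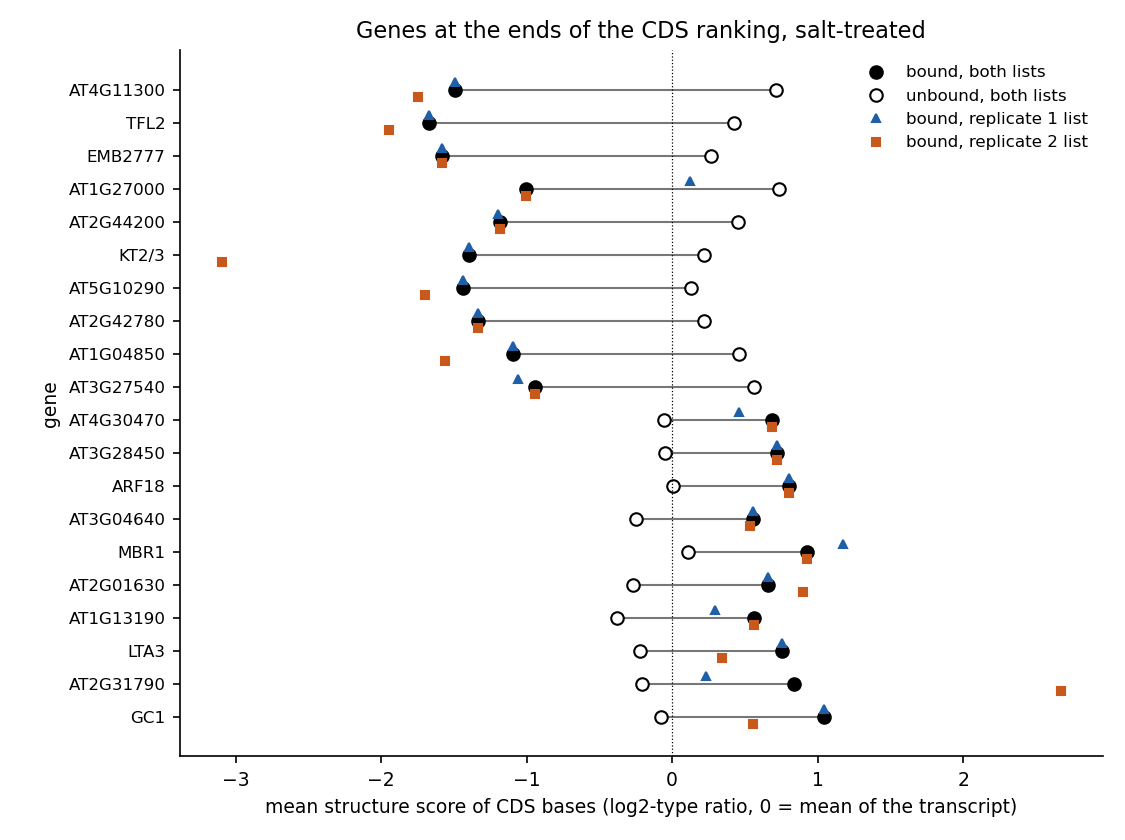
Mean structure score (horizontal axis, log2-type ratio) of bound bases (filled circles) and unbound bases (open circles) in the CDS of the 10 genes with the lowest and the 10 with the highest bound minus unbound difference in salt-treated leaves. Triangles and squares are the bound means with the replicate 1 and replicate 2 lists, which share calls. Bound means run from -1.67 in TFL2 to 1.04 in GC1.

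The ends of the UTR rankings rested on fewer bases. In the 3' UTR the lowest were TOM40, the pore of the mitochondrial import complex, at -2.65 over 63 bound bases, the vacuolar invertase gene ATBETAFRUCT4 at -2.59 over 67, and BRI1, the brassinosteroid receptor, at -2.49 over 52. The highest were AT3G60690, a SAUR-like gene, at 3.36 over 50 bases, and WRKY15 at 3.26 over 65. Under the control-treated score TOM40 was at -0.51, BRI1 at -1.31 and AT3G60690 at 2.196, but WRKY15 was at -0.68. RBP47C, itself an RNA-binding protein gene, had 1.502 over 103 bound and -0.34 over 608 unbound 3' UTR bases in the salt-treated score, and its difference of 1.84 became -0.42 in the control-treated score. In the 5' UTR the ends were AT4G32530, a proton pump subunit gene, at -3.84 over 43 bases and AT3G05160, a major facilitator gene, at 2.03 over 72. Under the control-treated score the low-end 5' UTR genes CDS4 and AT5G22730 turned to 0.27 and 0.96. AT4G32530 was at -2.98 there and SRF7 at -0.067. Of the high-end 5' UTR genes, AT3G05160, AT2G23680 and AtIPCS2 were at 1.05, 1.79 and 0.99 under that score, and LAX1 was at -0.053. With 1 or a few sites behind each value, these UTR genes show single sites rather than whole UTRs.

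In 4 lists of genes with known roles, bound means were more often lower than higher. Of 21 photosynthesis genes measured in the CDS, 15 had the bound mean lower and 6 higher, with a median of -0.25. Of 23 salt and osmotic stress genes, 16 were lower and 7 higher, with a median of -0.13. Of 14 RNA-binding and splicing genes, 11 were lower and 3 higher, with a median of -0.17, and all 7 chaperone genes were lower, with a median of -0.36. The background was 68.3% lower with a median of -0.23 over 5680 transcripts.

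Among the photosynthesis genes with the most bound bases, RCA, the activase of Rubisco, had -0.24 over 383 bound and 0.37 over 943 unbound CDS bases. Its bound bases came from the replicate 1 list alone, and it is a - strand gene, where the replicate 2 list held few calls of its own. GAPA1, a Calvin cycle dehydrogenase gene, had -0.25 over 236 bound and 0.044 over 955 unbound bases, and its difference was -0.15 with the replicate 1 list and -0.45 with the replicate 2 list. LHCA4, an antenna protein of photosystem I, differed little, with -0.024 and 0.070. LHCB4.1, an antenna protein of photosystem II, went the other way, with 0.082 over 278 bound and -0.019 over 594 unbound bases.

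In the stress list, RD29A, a classic target of drought and salt signalling, had most of its CDS bound, with 1569 bound bases at -0.048 and 564 unbound bases at 0.36. Its difference of -0.41 came from the replicate 2 list, and the replicate 1 list gave -0.22 over 877 bases. The plasma membrane proton pump gene AHA1 had -0.049 over 1437 bound and 0.20 over 1413 unbound bases. AVP1, the vacuolar proton pyrophosphatase, was nearly level, with 0.15 over 822 bound and 0.23 over 1491 unbound bases, a difference of -0.080 that was -0.039 with the replicate 1 list. DREB2A, a transcription factor of the drought and heat responses, turned sign along its mRNA, with 1.55 in the 5' UTR (133 bound bases against 49 unbound), -0.30 in the CDS and -1.64 in the 3' UTR over 29 bound bases. With the replicate 1 list its 5' UTR was at 0.92 and its CDS at -0.81. OST1, the kinase of abscisic acid signalling, had the highest difference of the list at 2.45 over 50 bound bases that were the same in both lists, and -0.36 under the control-treated score.

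Among genes for RNA-binding proteins, U2AF65A, a splicing factor that reads polypyrimidine tracts, had -0.46 over 450 bound and 0.10 over 1147 unbound CDS bases. SR30, a serine/arginine-rich splicing factor, had -0.083 over 463 bound and 0.23 over 308 unbound bases. VIR, a subunit of the m6A methyltransferase complex, had -0.28 over 436 and -0.011 over 5767, with all bound bases from the replicate 1 list. RS41, another serine/arginine-rich factor, had 0.12 over 468 bound and -0.022 over 507 unbound bases, and a difference of -0.0035 with the replicate 1 list. Of the chaperones, BIP2 and BIP1, the HSP70 proteins of the endoplasmic reticulum, had -0.30 over 1192 bound against 0.36 over 815 unbound bases and -0.32 over 1030 against 0.11 over 980. With the replicate 2 list BIP2 kept a difference of -0.45 over 757 bound bases, while BIP1 had -0.011 over 557. HSP70-1 and HSP70-3, their cytosolic relatives, had differences of -0.32 and -0.21. BIP1 and BIP2 are close copies of each other, as are HSP90.2 and HSP90.3 of the list, and how reads were shared between such copies was not tested.

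P5CS1, the rate-limiting enzyme of proline synthesis, showed how far the parts of a single mRNA can differ. Its gene lies on the - strand at chr2:16598164-16603319, and its bound bases came from the replicate 1 list alone, with 0 from the replicate 2 list. Such an absence is common on that strand, where only 25.7% of replicate 1 bound bases were also replicate 2 bases. In the CDS 782 bound bases averaged -0.11 and 1372 unbound bases 0.11, a difference of -0.22, and of -0.38 under the control-treated score. In the UTRs the bound bases were the higher ones, by 0.55 over 53 bases in the 5' UTR and by 0.30 over 92 bases in the 3' UTR, and by 0.27 and 0.98 under the control-treated score. Site means were taken for 6 CDS sites of at least 30 nt, which hold only part of the 782 bound bases. Of these 6, 4 averaged above 0 and 2 below. The middle 30 bases of the lowest of these 6, called with both RNases, are shown, with capitals for scores above 0.
P5CS1 CDS, chr2:16601384-16601413, - strand: acaaaucaagauuagggagaggggguauga

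This purine-rich window had no base above 0 and averaged -1.32, with -0.43 over the whole site of 117 nt between flanks of 1.05 and 0.24. Under the control-treated score the whole site was at -0.81.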

How the data were processed

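Nuclear RNA from control- and salt-treated leaves had been profiled by PIP-seq. The authors trimmed reads with cutadapt (1.2.1 in the submitters' processing notes), aligned them with TopHat2 2.0.10 to TAIR10, and called PPSs per replicate by comparing footprinting with structure-only libraries at a false discovery rate of 5%. They deposited a score for each spliced mRNA base, a log2-type ratio of ssRNase to dsRNase structure-only coverage with replicates merged and the transcript mean subtracted. Depth per base is unknown. Coordinates fitted the RefSeq TAIR10.1 chromosomes, where 10003 of 10003 CDS started with ATG.

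Scored bases were mapped to the genome through the exon blocks, and a transcript entered a comparison with at least 20 scored bases on each side. Python 3.11.15 and numpy 2.4.6 were used, and the comparison was checked on simulated scores. 67 organelle transcripts and 618 transcripts without a coding start and end were left out. Genes named were taken from the ends of the rankings by difference (10 per end in the CDS, 5 in the 3' UTR and 4 in the 5' UTR, same sign in both lists, at least 200, 50 and 40 bases per side). Not every gene of these ends was named. The 4 members of each list with the most bound CDS bases and P5CS1 were named as well. OST1 was named after its value was seen. The members and lists were chosen with earlier results of these data known. A sequence withheld for evaluation is not reported here.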

Additional observations from a re-analysis of the deposited data

How the results depend on the processing

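Of 75 bound minus unbound values under alternatives, 74 were below 0. The exception was ssRNase sites in the 3' UTR, at 0.025 without the replicate 1 list and -0.12 without the replicate 2 list. Leaving out a list gave -0.28 to -0.25 (5' UTR), -0.31 to -0.27 (CDS) and -0.22 to -0.17 (3' UTR) for all sites, -0.43 to -0.39, -0.45 to -0.36 and -0.28 to -0.27 for dsRNase sites, -0.13 to -0.067 (5' UTR) and -0.11 to -0.056 (CDS) for ssRNase sites, the lower with the replicate 1 list, -0.22 to -0.21 for site minus flank and -0.50 to -0.43 for the control-treated score. Values below are those that moved by at least 1 SD of the values of the 2 lists. Leaving out calls listed identically in both lists, chosen after seeing the data, gave -0.17 (5' UTR) and -0.21 (CDS) for all sites, and -0.29, -0.26 and -0.25 for dsRNase sites. Pooling all bases gave -0.20 (5' UTR), -0.21 (CDS) and -0.13 (3' UTR), and medians over bases -0.26 in both UTRs. Taking only unbound bases within 50 nt of a site gave -0.22 (CDS) and -0.24 (3' UTR) for all sites, -0.35, -0.30 and -0.26 for dsRNase sites, and -0.16 for ssRNase sites in the 3' UTR. A minimum of 50 bases gave -0.21 in the 5' UTR. For dsRNase sites in the 3' UTR, sites on the transcript's strand only gave -0.29 and unbound bases weighted by letter -0.27. The cause of these shifts was not tested. No paired analysis was possible because the score is merged over replicates and only site lists carry a replicate number. The split into bases of 1 or both lists could not be run with 1 list alone.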
